A study of Mus musculus with 16 samples.

Results

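Bone-marrow-derived macrophages lacking the microRNA miR-155 (KO) were set against wild-type (WT) macrophages before any stimulus was given. The comparison used 4 of the 16 single-colour arrays of the series, 2 of KO cells and 2 of WT cells at 0 h, paired by replicate number. All cells were of male C57BL/6Jax mice, had been grown from total marrow in 10 ng/mL M-CSF, which drives progenitors to become macrophages, and were lysed on day 9 as adherent cells without LPS. The other 12 arrays hold the same genotypes after 6, 12 or 24 h of 100 ng/mL LPS, a bacterial membrane component sensed by Tlr4, and served here for the estimate of spread and to see whether a difference at rest was also present later. How the KO allele was made, how many mice gave marrow and whether the replicates were separate cultures are not given in the sources used here, so p-values measure the spread between these samples only, which may be technical.

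miR-155 is processed from the transcript of its host gene on chromosome 16. Like other microRNAs it guides an Argonaute protein to messenger RNAs that carry a match to its seed, which lowers their stability and translation. It is known in macrophages as a microRNA that is low at rest and strongly induced by Toll-like receptor ligands, and its well-known targets include the inositol phosphatase Inpp5d (SHIP1), the cytokine signalling inhibitor Socs1 and the transcription factors Spi1 (PU.1), Cebpb and Bach1. The sequences below show the deleted microRNA's 2 arms as RefSeq gives them (GRCm38.p6), with the seed, bases 2 to 8, in capitals, followed by the stretch of the Cebpb probe that holds the letters pairing with the 5p seed and by the probe of the gene that passed the test at rest.

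mmu-miR-155-5p: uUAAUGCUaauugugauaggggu

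mmu-miR-155-3p: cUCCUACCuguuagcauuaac

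Cebpb probe, seed site in capitals: tttccgtttcgAGCATTAaagtgaagacat

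Rptoros probe, letters of the seed itself in capitals: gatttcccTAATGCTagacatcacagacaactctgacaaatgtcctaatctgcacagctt

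The 5p arm lies at chr16:84714143-84714165 on the plus strand and the 3p arm at chr16:84714182-84714202 (GRCm38.p6). The 2 probes are the array's own, on mm9: the Cebpb probe at chr2:167515847-167515905 on the plus strand, of which 30 bases are shown, and the Rptoros probe at chr11:119682498-119682557 on the minus strand, shown whole. The seed match AGCATTA was held by 174 of 41077 probes (0.424%) when read as printed, and its reverse complement TAATGCT by another 174 (0.424%). Among the reported targets described further on, Cebpb was the one whose probe held the match. A probe is a short window of a transcript, so these letters are a description of the probe and not a survey of the transcript's sites.

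With 0 probes for Mir155 or the host transcript, the arrays offer no check of the deletion itself. Signal is given below as log2 of the scanner intensity minus the array's 75th percentile, so that 0 is the level of the upper quartile of all probes on that array. That quartile was 372.0 to 775.7 scanner units on the 4 arrays at 0 h, and the scanner software put 62.1% to 67.6% of probes well above background. Of 41174 probes, 26855 were well above background on both arrays of at least 1 group, and they gave 17659 genes. Macrophage markers were bright on all 4 arrays. Adgre1, a surface marker of mature macrophages, stood at 7.82 and 7.47 in KO cells, against 7.49 and 7.33 in WT cells. Csf1r, the receptor for M-CSF, stood at 7.35 and 6.64 in KO cells, against 7.26 and 6.44 in WT cells.

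The replicates of a genotype were further apart than the genotypes. Replicate 1 arrays were scanned in one session and replicate 2 arrays in another. Across genes, the KO and WT arrays of a session correlated at 0.994 and 0.992, whereas the 2 KO arrays correlated at 0.955 and the 2 WT arrays at 0.963. Inflammatory genes were among those that separated the sessions in both genotypes. Tnf, the early inflammatory cytokine, was at 0.22 and 4.72 in KO cells, against 0.16 and 4.56 in WT cells, so that replicate 2 was the higher one in each genotype. Il10, an anti-inflammatory cytokine, was at -3.39 and 1.63 in KO cells, against -3.54 and 1.09 in WT cells. After 6 h of LPS, Tnf was at 8.17 and 8.07 in KO cells, against 7.96 and 7.48 in WT cells. The summed level of 14 tested neutrophil markers, in multiples of the upper quartile, was 35.8 and 5.63 in KO cells, against 55.0 and 4.59 in WT cells. Cell number and RNA per cell cannot be told apart in such bulk samples. What made the replicates differ was not tested. The comparison was therefore made within sessions, by fitting the replicate number as an additive term. At 0 h the replicate 1 arrays of both genotypes were on slide 1, whereas replicate 2 was on slide 3 for WT and on slide 4 for KO. In session 2, genotype at rest therefore cannot be told apart from slide.

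At rest the genotypes were close. The difference KO minus WT, averaged over the sessions, had a median of 0.01 on the log2 scale over all genes, with quartiles at -0.13 and 0.13, and 98.5% of genes lay within 1 log2 unit. The differences of the 2 sessions showed almost no relation across genes (r = 0.00935 across genes, given as a description because genes are not independent of each other). The sign was the same in both sessions for 8960 genes, 50.7% of those tested, and 8458 of them (47.9%) were also well above background on both arrays of the brighter genotype, 4814 higher (27.3%) and 3644 lower (20.6%) in KO. In 25 of these genes (0.142%) the difference exceeded 1 log2 unit in each session, 12 higher (0.068%) and 13 lower (0.0736%) in KO. Without the condition on brightness, 52 genes exceeded 1 log2 unit in each session with the same sign and 43 with opposite signs. Of the 25, 4 were well above background on all 4 arrays: Rptoros, Cbr1 and Adamts1, which were higher in KO, and the unplaced transcript BC057602, which was lower.

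**Figure D1:**
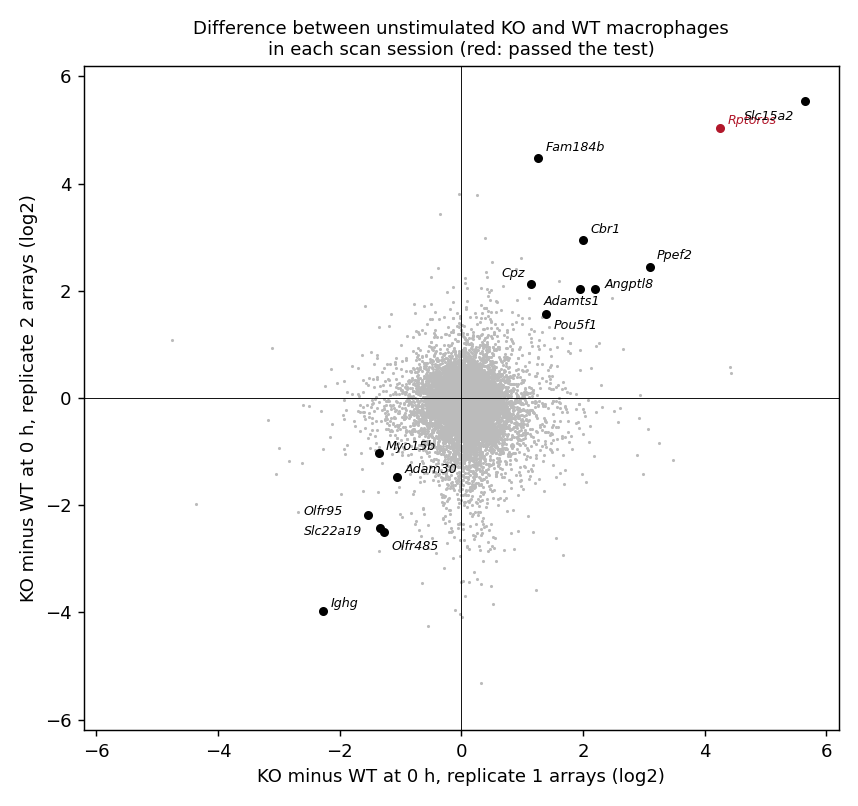
Each grey point is 1 of the 17659 genes, with its KO minus WT difference (log2) on the replicate 1 arrays on the horizontal axis and on the replicate 2 arrays on the vertical axis. Labelled genes exceeded 1 log2 unit with the same sign in each session; most genes form a round cloud (r = 0.00935), and Rptoros, in red, was the gene that passed the test.

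By limma's moderated test with Benjamini-Hochberg adjustment, 1 gene of 17659 (0.00566%) differed between the genotypes at rest. It was Rptoros, a transcript named for its place on the strand opposite to Rptor, the gene of a subunit of the growth regulator mTORC1. Its signal was 0.17 and 1.15 in KO cells, against -4.08 and -3.89 in WT cells. Both KO arrays were thus far above both WT arrays, and all 4 were well above background. The group means were 0.66 ± 0.69 in KO cells and -3.99 ± 0.13 in WT cells (SD, n = 2 each), and the difference was 4.65 ± 0.47 (SE of the fit), or 25-fold, with an adjusted p of 0.0433. The call did not hold when any single array at 0 h was left out (adjusted p 0.0707 to 0.313, differences 4.25 to 5.05), without the session term (adjusted p = 1.0) or with slide as a fixed term (4.0, adjusted p = 0.0943). Over 12 settings that kept all arrays at 0 h, these included, the difference was 3.30 to 4.91, the adjusted p 0.0171 to 1.0, and 7 kept the call.

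The same probe was also higher in KO cells on the LPS arrays, which are other samples. At 6 h the Rptoros difference was 4.76 (adjusted p = 0.0352), with 1 of the 2 WT arrays well above background. At 12 and 24 h neither WT array was, so only a bound can be given: KO was at least 13.4-fold higher at 12 h (adjusted p = 0.0109) and at least 4.57-fold higher at 24 h (adjusted p = 0.0892). The 4 detected probes of Rptor itself differed between the genotypes at rest by -0.15 to 0.25. Rptoros was represented by 1 probe.

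The other genes that exceeded 1 log2 unit in each session did not pass the test, and their values are given as a description. The next smallest adjusted p over all genes was 0.871, and 171 genes (0.968%) had an unadjusted p below 0.05, 79 of them higher (0.447%) and 92 lower (0.521%) in KO. Cbr1, a carbonyl reductase that detoxifies reactive carbonyls and quinones, stood at 3.58 and 3.58 in KO cells, against 1.57 and 0.63 in WT cells. Its difference was 2.48 ± 0.53, and both KO arrays were above both WT arrays. Cbr1 was also higher in KO cells by 2.54, 2.87 and 2.85 at 6, 12 and 24 h of LPS, where it did not pass either (adjusted p 0.649, 0.425 and 0.516). Cbr3, its neighbouring paralog, differed by 0.69 ± 0.40 at rest.

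Slc15a2 encodes a proton-coupled peptide transporter. The signal of its brighter probe was -2.0 and -2.96 in KO cells, against -7.65 and -8.51 in WT cells, where neither array was well above background, so that by this probe KO was at least 16.5-fold higher (adjusted p = 0.871). Its second detected probe, well above background on all 4 arrays, gave -3.15 and -5.17 in KO cells, against -4.02 and -5.89 in WT cells, a difference of 0.79, so the probes disagreed on the size. By the brighter probe the difference under LPS was 1.30, 1.80 and 1.18 at 6, 12 and 24 h, with both WT arrays well above background at 6 h and 1 of the 2 at 12 and 24 h.

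Adamts1, a secreted metalloprotease that cleaves matrix proteoglycans, was at -1.49 and 0.24 in KO cells, against -3.44 and -1.79 in WT cells. Its difference was 1.99 ± 0.45, and the groups did not overlap. Its other detected probe differed by 1.37. The arrays of the 2 genotypes did not overlap in 1903 genes (10.8%), in either direction, at rest.

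Fam184b, Ppef2, Angptl8, Cpz and Pou5f1 were well above background on both KO arrays and on neither WT array. Fam184b stood at -5.23 and -2.90 in KO cells, against -6.49 and -7.37 in WT cells, at least 5.49-fold higher. That bound rests largely on KO replicate 2: it was 2.40-fold in session 1 and 12.6-fold in session 2, and without KO replicate 2 the fitted difference was 1.31. Ppef2, a calcium-dependent protein phosphatase known from sensory neurons, stood at -5.24 and -6.35 in KO cells, against -8.33 and -8.80 in WT cells, at least 1.66-fold higher. Angptl8, a secreted inhibitor of lipoprotein lipase, was at least 2.20-fold higher in KO cells. Cpz, a secreted carboxypeptidase, was at least 1.81-fold higher, and Pou5f1, the pluripotency factor Oct4, at least 2.11-fold higher. Other, dimmer probes did not all go the same way. That of Cpz, well above background on KO replicate 1 only, gave 1.09 and -1.60 in the sessions. That of Angptl8, well above background on none of these arrays, gave -0.14, and those of Fam184b gave 1.13 and -0.08. All 5 genes were dim, far below the upper quartile, and none passed the test (adjusted p = 1.0 for Pou5f1). Under LPS, no KO array was well above background for Fam184b, Angptl8, Cpz or Pou5f1. For Ppef2, 2, 2 and 1 KO arrays were, at 6, 12 and 24 h. Of the WT arrays, 1 was well above background for Angptl8 at 12 h, and 1 for Pou5f1 at each of 6 and 12 h.

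The 6 named genes that were lower in KO cells were all dim as well, and the probes of 5 of them were well above background on neither KO array. Ighg, an immunoglobulin heavy-chain constant gene, was at -6.08 and -7.33 in KO cells, against -3.81 and -3.36 in WT cells, at least 6.37-fold lower. The bound was 4.32-fold in session 1 and 9.39-fold in session 2, and the fitted difference ran from -4.70 without KO replicate 1 to -1.54 without KO replicate 2. After 6 h of LPS Ighg differed by 0.16, with both arrays of each genotype well above background. It was at least 1.21-fold lower in KO cells at 12 h. At 24 h it differed by -2.11, with 1 array of each genotype well above background. An immunoglobulin kappa transcript, AF152371, was at -7.81 and -4.30 in KO cells, against -3.46 and -2.33 in WT cells. Neither passed the test. Among B lymphocyte markers, Ms4a1 (CD20) was not well above background on any of the 4 arrays. Jchain, which joins secreted immunoglobulin chains, was at -5.87 and -5.28 in KO cells, against -4.90 and -4.22 in WT cells. Of 8 tested B lymphocyte markers none passed, and 3 were higher and 4 lower in both sessions (37.5% and 50%, against 28.9% and 21.9% of all genes). Their median difference was -0.29 (-0.05 and -0.30 in the sessions). The summed level, which weighs bright members most, went the other way, at 166 and 135 in KO cells, against 147 and 115 in WT cells. The part of B lymphocytes in the immunoglobulin values was not tested.

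Olfr485 and Olfr95, which are olfactory receptors, Slc22a19, an organic anion transporter, Adam30, a membrane metalloprotease-like protein, and Myo15b, a myosin-like gene, make up the rest. Olfr485 was at least 1.69-fold, Olfr95 at least 1.46-fold and Slc22a19 at least 1.95-fold lower in KO cells. The Adam30 difference was -1.26, with 1 of the 2 KO arrays well above background. It ran from -2.07 to -0.45 with single arrays left out, and its other, dimmer probe went the other way by 0.64. The Myo15b probe was at least 1.39-fold lower in KO cells. Its other probe, well above background on the replicate 1 arrays only, differed by -0.06 there. The WT level of these 5 genes was between -5.92 and -4.36, close to the detection limit, and with normexp background correction the sign of all 5 turned. After 6 h of LPS Olfr485 was at least 1.42-fold higher in KO cells, and Olfr95 differed by 0.06. Adam30 differed by -0.76, 1.06 and -1.36 at 6, 12 and 24 h. No KO array under LPS was well above background for Slc22a19. Myo15b was well above background on no array at 6 and 12 h, and differed by 0.46 at 24 h. The remaining 10 of the 25 genes have no ordinary symbol; 3 were higher and 7 lower in KO.

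**Figure D2:**
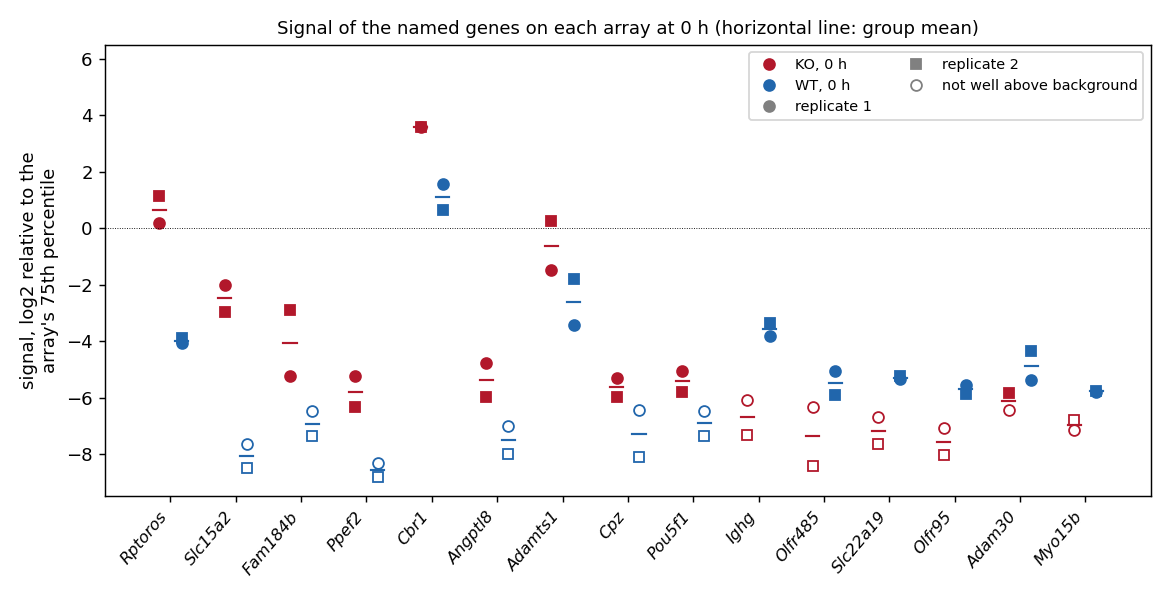
Signal of 15 genes that exceeded 1 log2 unit in each session, on each array at 0 h (vertical axis, log2 relative to the array's 75th percentile), with KO left of WT, circles for replicate 1, squares for replicate 2, open symbols where the probe was not well above background and a line at the group mean. Rptoros, Cbr1 and Adamts1 were measured on all 4 arrays, whereas the WT arrays of 6 genes and the KO arrays of 5 genes were all not well above background for the probe used.

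The well-known targets of miR-155 and the main macrophage regulators did not pass at rest. All 21 genes chosen for their known roles were tested, and their differences lay between -0.21 and 0.39, with a smallest unadjusted p of 0.446; 15 were higher and 1 lower in KO in both sessions. Inpp5d was at 5.10 and 4.02 in KO cells, against 4.81 and 4.41 in WT cells, so that KO was the higher genotype in one session and the lower in the other (-0.05 ± 0.31). Socs1 was at -1.73 and -1.86 in KO cells, against -1.93 and -2.01 in WT cells, a difference of 0.17 ± 0.23. Cebpb, whose probe holds the seed match shown above, was at 4.35 and 3.5 in KO cells, against 4.01 and 3.47 in WT cells (0.18 ± 0.23). Spi1 differed by 0.22 ± 0.31, Bach1 by 0.22 ± 0.33, and Jarid2, a component of the Polycomb machinery, by 0.13 ± 0.28. Fos, an immediate early transcription factor, differed by 0.29 ± 0.88 and Il13ra1, a receptor chain for interleukin 13, by 0.22 ± 0.46. With 2 arrays per group, these errors do not show that the genotypes were alike.

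Of 99 genes reported as miR-155 targets in the literature, 93 were tested and 0 passed, with 0 at an unadjusted p below 0.05. In both sessions 34 were higher (36.6%) and 11 lower (11.8%) in KO, against 28.9% and 21.9% of all genes, and 48 changed sign between sessions. Their median difference was 0.08 (0.07 and 0.08 in the sessions), against 0.01 for all genes, and it was 0.09, 0.05 and 0.07 at 6, 12 and 24 h. The values ran from -0.47 for the phosphatase Dusp7 to 0.73 for the lysyl oxidase Lox, which was not well above background on both arrays of either genotype. Of the 93 genes, 90 were well above background on all 4 arrays. The summed signal of all genes tested was also higher in KO, at 158068 against 144645 in replicate 1 and 124571 against 115617 in replicate 2. Such a sum weighs bright genes most, and the median of all genes was 0.01, so it does not measure a shift shared by all genes. Whether the brightness of the targets has a part in their median was not tested. For Csf1r, a listed target, the difference was 0.14 as reported and 0.006 with quantile scaling. Of 68 genes whose probe held AGCATTA, 0 passed, 17 were higher and 22 lower in both sessions, and the median was -0.01.

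**Figure D3:**
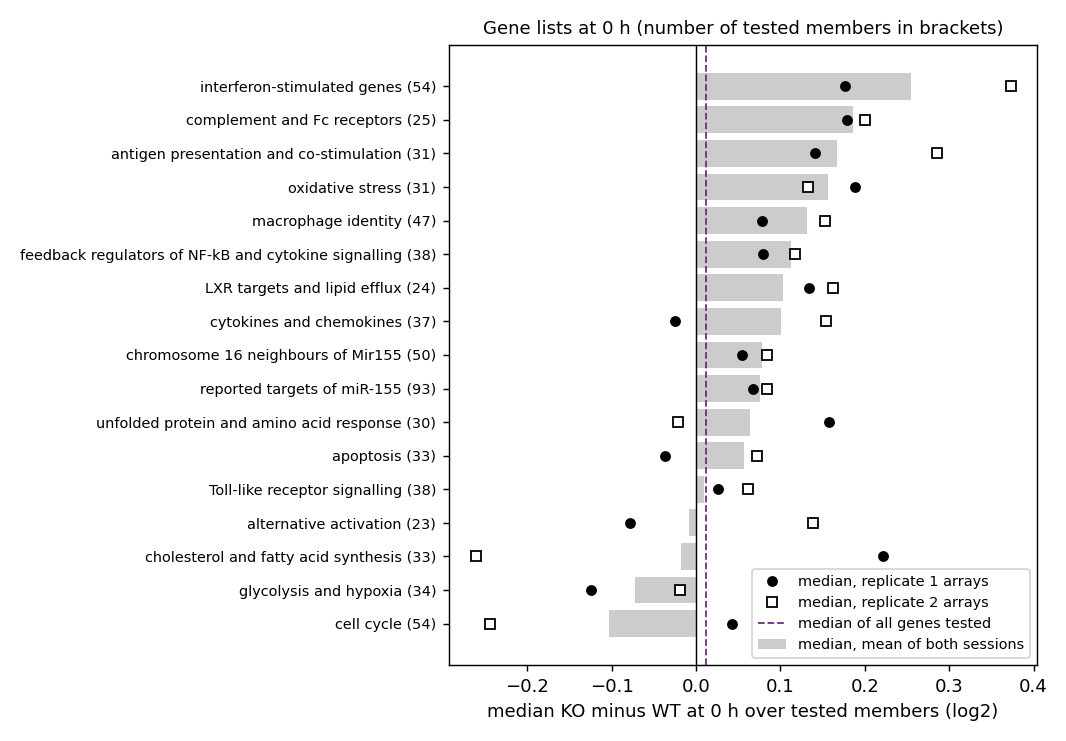
Median KO minus WT difference at 0 h (horizontal axis, log2) over the tested members of 17 gene lists. Grey bars give the mean of both sessions, filled circles replicate 1 arrays, open squares replicate 2 arrays, and the dashed line the median of all genes (0.01); interferon-stimulated genes stood highest at 0.25, and in 6 lists the sessions had opposite signs.

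No member of the 17 pathway lists passed the test at rest; the members named from here on were chosen after their values were seen. The list with the highest median was that of interferon-stimulated genes, the antiviral programme driven by type I interferon. Of 54 tested members, 38 were higher and 4 lower in KO in both sessions (70.4% and 7.41%, against 28.9% and 21.9% of all genes). The median was 0.25 (0.18 and 0.37 in the sessions). At an unadjusted p below 0.05 by limma were 6 of the 54, against 0.968% of all genes. All 6 were higher in KO: the oligoadenylate synthetase family genes Oas1a, Oas2, Oasl1 and Oasl2, the chaperone Rtp4 and Slfn5. Oasl1 was at -1.32 and -1.86 in KO cells, against -2.59 and -2.77 in WT cells, a difference of 1.09 ± 0.44. Rtp4 was at 4.55 and 4.65 in KO cells, against 4.0 and 3.65 in WT cells (0.78 ± 0.20). For Oas1a, Oas2, Oasl2 and Slfn5 the differences were 0.49, 0.50, 0.65 and 0.58. Among the best-known members, Isg15 differed by 0.48 ± 0.44 and Irf7 by 0.51 ± 0.45. The median of the list was 0.25 at rest, 0.03 at 6 h, -0.18 at 12 h and -0.45 at 24 h. It depended on which arrays were compared: with slide as a fixed term it was -0.02, and it ran from -0.15 to 0.68 when single arrays at 0 h were left out. Ifnar1, a chain of the type I interferon receptor, was at 2.49 and 2.28 in KO cells, against 1.67 and 1.37 in WT cells, a difference of 0.87 ± 0.22 at rest that was 0.13, 0.08 and -0.06 at 6, 12 and 24 h of LPS. It did not pass the test either.

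Antigen presentation, complement and oxidative stress genes had the next highest medians. Most of their members were well above background on all 4 arrays. The median of all genes was 0.01, and whether the brightness of these members has a part in their medians was not tested. The class II genes of antigen presentation, which macrophages use to show peptides to helper T cells, were higher in KO in each session but differed far more between sessions. H2-Ab1 was at 3.41 and -0.11 in KO cells, against 2.56 and -1.13 in WT cells (0.94 ± 1.03), and Cd74, the class II invariant chain, at 4.12 and 0.93 in KO cells, against 3.30 and 0.53 in WT cells (0.61 ± 0.93). Of 31 tested antigen presentation genes, 19 were higher and 1 lower in both sessions (61.3% and 3.23%, against 28.9% and 21.9% of all genes). Their median was 0.17. Of 25 complement and Fc receptor genes, 14 were higher and 3 lower (56.0% and 12.0%, median 0.19). C2, the complement protease that forms part of the classical convertase, was at -1.48 and -1.65 in KO cells, against -2.74 and -2.63 in WT cells, a difference of 1.12 ± 0.23. Its second probe differed by 0.97, and the difference was 0.81, 0.65 and 0.83 at 6, 12 and 24 h, but C2 did not pass at rest (adjusted p = 1.0). Of 31 oxidative stress genes, 19 were higher and 1 lower in both sessions (61.3% and 3.23%), with a median of 0.16 at rest and of 0.12, 0.13 and 0.15 under LPS.

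Of 47 tested macrophage markers 0 passed, and 26 were higher and 3 lower in both sessions (55.3% and 6.38%, against 28.9% and 21.9% of all genes). Their median was 0.13, and all 47 were well above background on all 4 arrays. Of 24 tested targets of the sterol receptor LXR and lipid efflux genes, 12 were higher and 4 lower in both sessions (50% and 16.7%). Their median was 0.10, and the values ran from -0.63 for Fabp5 to 0.73 for Apoc1. Apoe and Apoc1, lipid carriers induced by LXR, differed by 0.38 ± 0.19 and 0.73 ± 0.21. Among 37 cytokines and chemokines, 14 were higher and 6 lower in both sessions (37.8% and 16.2%). Their median was 0.10, but the sessions were opposite, at -0.03 and 0.15. The values ran from -1.59 for Cxcl9 to 1.30 for Il12a, and 26 of the 37 were well above background on all 4 arrays. Ccl8, a monocyte chemokine, was at 1.71 and 1.30 in KO cells, against 0.63 and 0.78 in WT cells (0.80 ± 0.39). Tnf differed by 0.11 ± 1.23, Il1b by 0.04 ± 0.92 and Il10 by 0.35 ± 0.76. Il6 and Nos2 were not well above background in either genotype. Of 38 Toll-like receptor pathway genes 12 were higher and 6 lower, with a median of 0.01, and Tlr4 itself differed by -0.11 ± 0.21, Cd14 by 0.16 ± 0.30 and Myd88 by 0.05 ± 0.32.

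Cell cycle genes ran the other way, with 4 of 54 higher and 20 lower in both sessions and a median of -0.10, although replicate 1 arrays gave 0.04 and replicate 2 arrays -0.25. The kinesin Kif23 had the lowest value of the list (-0.63 ± 0.58). In cholesterol and fatty acid synthesis the sessions were opposite, at 0.22 and -0.26. Glycolysis and hypoxia genes had a median of -0.07, with 5 of 34 higher and 13 lower in both sessions. Alternative activation genes had a median of -0.01, with Mrc1 (CD206) at 0.06 ± 0.48 and Arg1 (arginase) at -0.21 ± 0.99.

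Among the 11 lists of cell types, none had a member that passed. Fscn1, an actin bundler of mature dendritic cells, was at -4.78 and -4.02 in KO cells, against -4.16 and -1.97 in WT cells (-1.34 ± 0.40, adjusted p = 1.0). The summed level of 11 dendritic cell markers was 68.1 and 75.4 in KO cells, against 72.4 and 58.5 in WT cells. Lymphoid T and NK markers summed to 0.67 and 0.26 in KO cells, against 0.63 and 0.23 in WT cells, and Cd3g and Cd247 were not well above background on any of the 4 arrays.

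The genes around Mir155 on chromosome 16, the neighbourhood of the deleted locus, were described as a region. Between 75 and 95 Mb (array positions, mm9) 95 genes were tested and 0 passed. At an unadjusted p below 0.05 were 7 of them (7.37%), 4 higher and 3 lower in KO, against 4 of 479 on the rest of the chromosome (0.835%) and 160 of 17085 elsewhere (0.936%). The 4 that were higher were Adamts1, Ifnar1, Cryzl1, a quinone reductase-like gene, and Cbr1. Their probes lay 1.08, 6.79, 6.97 and 8.89 Mb from that of Mrpl39. The 3 that were lower were Krtap6-1, a hair keratin-associated protein, and 4932438H23Rik, both well above background on the WT arrays only, and a transcript without a gene name. The median of the 95 genes was 0.04, close to the 0.01 of genes elsewhere. Mrpl39, which encodes a mitochondrial ribosomal protein and is the nearest measured gene to Mir155, did not differ at rest beyond its error. It was at 2.27 and 2.20 in KO cells, against 2.24 and 2.33 in WT cells (-0.04 ± 0.25). Its difference under LPS was -2.13, -3.78 and -2.09 at 6, 12 and 24 h, with an adjusted p of 0.00095 at 12 h.

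**Figure D4:**
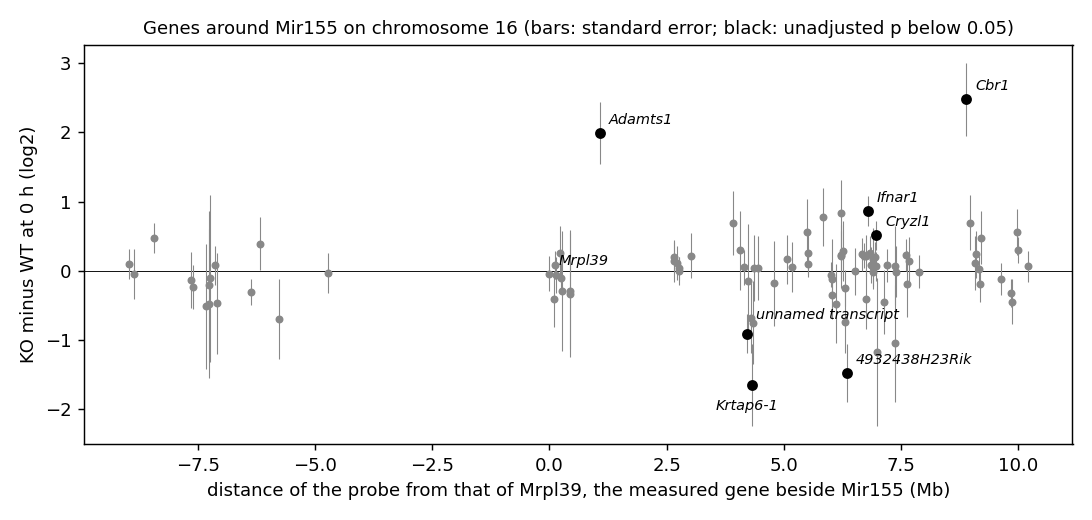
KO minus WT difference at 0 h (vertical axis, log2, with the standard error of the fit) of the 95 genes tested between 75 and 95 Mb of chromosome 16, by the distance of each probe from that of Mrpl39 (horizontal axis, Mb). Black points had an unadjusted p below 0.05; Cbr1 at 2.48 and Adamts1 at 1.99 stand highest, and Mrpl39 lies at -0.04.

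Whether a genotype difference at rest differed from that under LPS was tested directly, as the difference at 0 h minus the mean difference at 6, 12 and 24 h. By limma 0 of 17659 genes passed after adjustment, and 254 (1.44%) had an unadjusted p below 0.05. Mrpl39 came nearest (2.62 ± 0.29, adjusted p = 0.0930). After it came AK050838, Saa2, Olfr71 and Fxyd7. Saa2, an acute-phase protein, differed by -1.26 at rest and by -0.03, 0.37 and 0.50 under LPS, and it was dim on all 4 arrays at rest. Counts of genes that passed at a single time were 1 at rest, 2 at 6 h, 3 at 12 h and 0 at 24 h (0.00566%, 0.0113%, 0.017% and 0%). Beside Rptoros these were Noxa1, lower in KO at 6 h (-2.30), and at 12 h Mrpl39, lower, and Sod3, higher (2.89); Noxa1 and Sod3 were not well above background on any array at rest. The spread of the differences was narrower at rest than later. At rest 262 genes lay beyond 1 log2 unit, against 643, 658 and 694 at 6, 12 and 24 h, and this count was not tested. Of the 262, 208 were not well above background on all 4 arrays at rest. The differences of the 2 sessions correlated across genes at 0.02, 0.04 and 0.27 at 6, 12 and 24 h. At 6 and 12 h KO and WT were on different slides in both sessions, unlike at rest, so the counts at those times cannot be told apart from slide. At 24 h the layout was like that at rest. Both genotypes were on slide 2 in session 1, whereas in session 2 WT was on slide 3 and KO on slide 4. What made the spread differ between the times was not tested.

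**Figure D5:**
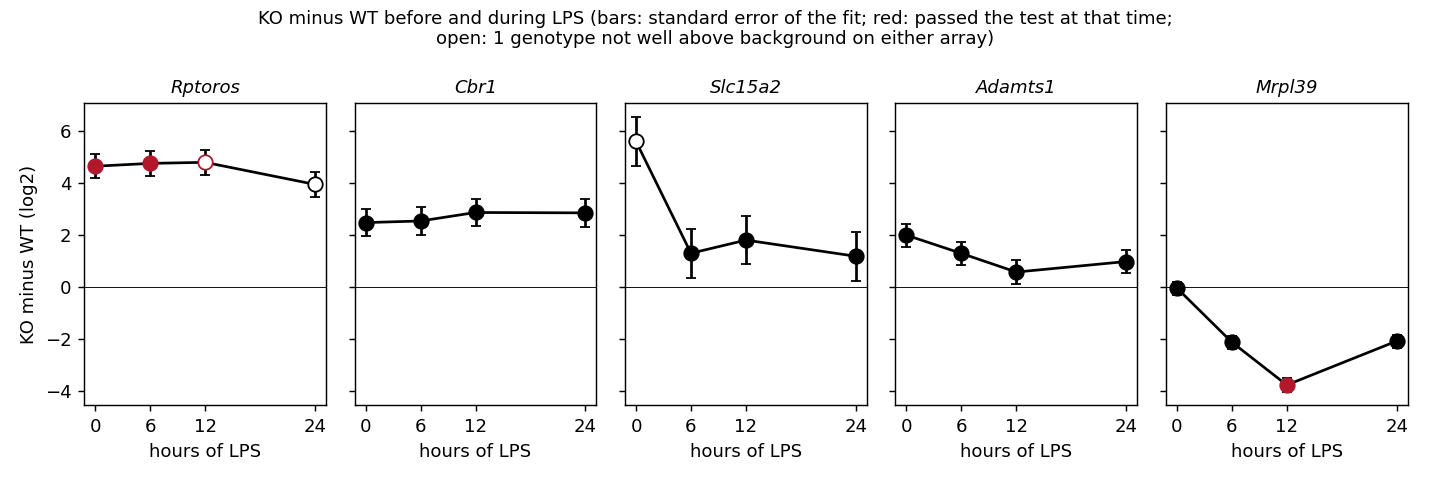
KO minus WT difference (vertical axis, log2, with the standard error of the fit) at 0, 6, 12 and 24 h of LPS for 5 genes, with red points where the gene passed the test at that time and open points where 1 genotype was well above background on neither array, so that the plotted fitted value is not a measured size and only the lower bound in the text holds (Rptoros at 12 and 24 h, Slc15a2 at rest). Cbr1 stayed between 2.48 and 2.87, and Mrpl39 was at -0.04 at rest and -3.78 at 12 h.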

How the data were processed

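Each sample was labelled with Cy3 and hybridised to its own Agilent array, 4 arrays to a slide; spots were quantified by Feature Extraction 10.5.1.1 (Agilent), per the file headers. The deposited scanner files give each spot's processed intensity, which that software had detrended and background-subtracted, per the file headers. The authors' deposited series table holds log2 values that matched the log2 of these intensities (r = 1) and served as an alternative.

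Outlier spots (75 to 102 on the arrays at 0 h) and 1639 control spots were removed; 0 spots were saturated. Log2 intensities were averaged per probe and centred on the 75th percentile of their array. Probes without a value on every array (97) were left out. The reference gene table named 26964 probes through their accession, 5495 through a symbol and 873 through a synonym; for 7745 the array file's name was used. Each gene was represented by its probe of highest mean, which set aside 9196 detected probes of the same genes. Positions are the array file's, on mm9.

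All 16 arrays were fitted in limma 3.58.1 (R 4.3.3) with 8 group means and the replicate number as an additive term (7 residual and 2.60 prior degrees of freedom). P-values were adjusted by Benjamini-Hochberg over 17659 genes at a threshold of 0.05, and the procedure was tested on simulated data. Errors after ± come from the fit (SE) unless marked SD. The pairing is by the replicate number of the sample titles, which matches the scan sessions in the file headers. In each of 28 pairs of groups, arrays of one number deviated together (correlation 0.40 to 0.84). Arrays of one number share a scan session, so this check cannot show that the cultures were paired. Where a group was not well above background, a fold is a lower bound against the higher of the array's lowest detected signal and the probe's own. Other background corrections, scalings, filters, probe choices, slide terms and left-out arrays were tried.

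Genes were named by rule: those past the threshold, then those beyond 1 log2 unit in each session with the same sign, an ordinary symbol and a probe well above background on both arrays of the brighter genotype, up to 12 each way, 21 genes chosen by role, and the 5 smallest p-values for rest against LPS. The members, the rule and the lists (17 pathways and 11 cell types, 811 genes, 725 tested) were chosen with earlier results of these data known.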

Additional observations from a re-analysis of the deposited data

How the results depend on the processing

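The count of genes that passed at rest was 1 and depended on the setting. It was 0 without the replicate block, 0 in a fit of the 4 arrays at 0 h alone, 0 with slide as a fixed term, 0 after normexp background correction and 0 with no filter on dim probes, where 43, 633, 242, 4 and 534 genes had an unadjusted p below 0.05. It was 1, and the gene was Rptoros, with slide as a random term, quantile or median scaling, the deposited table, a filter on the arrays at 0 h, the mean of a gene's probes or an intensity trend. Leaving out single arrays at 0 h, with the lone array assumed to vary like the other groups, gave 0 to 3 genes. The 3 appeared without KO replicate 1 (AK035470, Cabp4 and Mmp25, all lower in KO), 1 appeared without KO replicate 2 (B3gnt4), and none of them was Rptoros. The count for the difference between rest and LPS was 0, with or without the replicate block. It was 1 with slide as a random term and 1 with an intensity trend, Mrpl39 in each, and 0 to 2 with single arrays left out; the fit of the 4 arrays at 0 h gives no such value. The sign of 13 named genes changed under normexp, all of them dim or within their error, among them Olfr485, Slc22a19, Olfr95, Adam30 and Myo15b. The median difference over all genes was 0.01 as reported, -0.02 without KO replicate 1 and 0.10 under normexp, with the other settings between. With single arrays left out, 7 to 9 named genes changed sign, among them Inpp5d, Spi1, Bach1 and Tnf. The cause of these changes was not tested. Dim signal limits the genes that were measured in 1 genotype only.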

Other observations

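BC057602, a transcript that the array file places on no chromosome, was lower in KO cells at every time. It stood at -3.91 and -4.46 in KO cells at rest, against -0.85 and -3.04 in WT cells, a difference of -2.23 that was -1.05 without KO replicate 1 and -3.41 without KO replicate 2. Its differences were -2.25, -2.28 and -1.68 at 6, 12 and 24 h. It was well above background on all 4 arrays at rest and did not pass the test there (adjusted p = 1.0). It was chosen after its values were seen.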
